A study of Drosophila melanogaster with 2 samples.

Results

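The nuclear genes for the mitochondrial respiratory chain and the ATP synthase were examined in a map of where the Drosophila melanogaster protein CG43689, tagged with eGFP, was recovered on chromatin. They were the protein-coding genes of the dm6 annotation whose symbols begin with ND-, COX and a digit, UQCR- or ATPsyn, together with SdhA, SdhB, SdhC and SdhD. The rule gave 84 of the 13945 protein-coding genes on the chromosome arms, with 40 in complex I, 4 in complex II, 9 in complex III, 16 in complex IV and 15 in complex V. Of these, 21 are paralogs that bear the name of another subunit followed by L, L1 or L2 and are called like paralogs below, a division made after the values were seen. Both samples were biological replicates of 1 group of transgenic whole embryos aged 8 to 24 h, whose sonicated chromatin, in fragments of 200 to 800 bp, was immunoprecipitated through the GFP tag. Every cell type of the embryo was in the material, so a peak cannot be assigned to a tissue. There was no second condition and no control library was analysed here, so the values describe the placement of peaks in the deposited lists and no test between groups was possible.

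The respiratory chain of the inner mitochondrial membrane passes electrons from NADH and succinate to oxygen through complexes I to IV, and the ATP synthase, complex V, uses the proton gradient so built to make ATP. Most of the subunits are encoded in the nucleus, scattered over the chromosomes, and a few by mitochondrial DNA. In flies several subunits have a paralog that is expressed mainly in the testis, and many housekeeping genes of this kind start close to a neighbour on the opposite strand.

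The sequences under 5 of the 6 thresholded peaks at these genes are shown because all were rich in A and T. Each is the 101 bases centred on the pooled summit, written 5′ to 3′ on the strand of the gene and read from the NCBI Release 6 genome (dm6), with runs of 8 or more A or T in capitals.
ND-ASHI (chrX:6679330-6679430, minus strand): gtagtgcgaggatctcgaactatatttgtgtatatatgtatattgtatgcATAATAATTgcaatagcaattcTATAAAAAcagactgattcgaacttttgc
ND-24 (chrX:17632115-17632215, plus strand): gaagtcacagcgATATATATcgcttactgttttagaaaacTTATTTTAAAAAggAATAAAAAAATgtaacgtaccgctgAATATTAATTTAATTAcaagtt
ND-42 (chr3R:22027443-22027543, plus strand): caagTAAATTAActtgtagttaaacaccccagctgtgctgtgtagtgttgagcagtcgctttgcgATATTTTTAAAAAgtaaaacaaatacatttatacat
ATPsynE (chr3R:14326956-14327056, plus strand): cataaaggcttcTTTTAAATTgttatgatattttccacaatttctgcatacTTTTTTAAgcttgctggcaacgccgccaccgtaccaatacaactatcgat
ATPsynCF6 (chr3R:23356122-23356222, minus strand): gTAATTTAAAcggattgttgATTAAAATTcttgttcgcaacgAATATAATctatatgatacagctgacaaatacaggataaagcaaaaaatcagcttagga
GC content was 30.7% at ND-ASHI, 25.7% at ND-24, 32.7% at ND-42, 36.6% at ATPsynE and 29.7% at ATPsynCF6. Windows of the same length centred 400 bp to either side of those summits averaged 37.1%, 52.5%, 49.5%, 53.0% and 51%, so each summit was poorer in GC than its own surroundings. The longest run was in ND-24, at 16 bases. ND-ASHI lay in the least contrasting surroundings of the 5.

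A thresholded peak is one that passed the authors' cut on the irreproducible discovery rate (IDR), and a ranked peak is any candidate that entered that ranking. A gene was counted when a peak summit lay within 500 bp of any of its annotated start sites. In the pooled thresholded list, 6 of the 84 genes had such a summit, which is 7.14% (Wilson 95% interval 3.31 to 14.7), beside 8.36% of all protein-coding genes. The counts were 5 genes (5.95%) beside 6.02% in replicate 1 and 2 genes (2.38%, interval 0.655 to 8.27) beside 5.67% in replicate 2. The conservative list held 7 genes, beside 8.0% of all genes. In both replicate lists there were 2 genes, beside 4.44%. Every one of these intervals contained the share of all genes. The share was nearest to the background in replicate 1, the pooled list and the conservative list, and lower in replicate 2, where 2 genes leave it imprecise. Wilson intervals here cover counting error only, and they treat neighbouring genes that share a peak as separate.

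In the ranked lists the shares were lower than the background. The pooled ranked list had a summit at 48 of the 84 genes (57.1%, interval 46.5 to 67.2), beside 74.7% of all genes. Replicate 1 had one at 44 genes (52.4%, interval 41.8 to 62.7) beside 69.7%, and replicate 2 at 48 genes (57.1%, interval 46.5 to 67.2) beside 68.3%. All 3 intervals lay below the share of all genes. Among genes with a pooled ranked summit, 6 of 48 were thresholded (12.5%, interval 5.86 to 24.7), beside 11.2%. In none of the 4 ranked lists was there a summit at 23 of the 84 genes (27.4%, interval 19.0 to 37.7), beside 13.7% of all genes. Within 250 bp of a start site, 27 of the 84 genes had a pooled ranked summit, beside 53.2%.

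The number of annotated start sites and base composition are given beside this result, and their part in it was not tested. Of the 50 respiratory chain genes with 1 start site, 30 (60%, interval 46.2 to 72.4) had a pooled ranked summit, beside 72.4% of all such genes. Of the 34 with more, 18 (52.9%, interval 36.7 to 68.5) had one, beside 81.2%. GC content of the promoters, from 250 bp before to 50 bp after the canonical start, was 35.7% ± 6.41 (SD, n = 84), beside 39.3% ± 7.8 over all genes. Over all genes it was 36.9% where there was no pooled ranked summit and 40.1% where there was one. For the respiratory chain genes the values were 34.9% and 36.3%, a smaller gap.

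**Figure D1:**
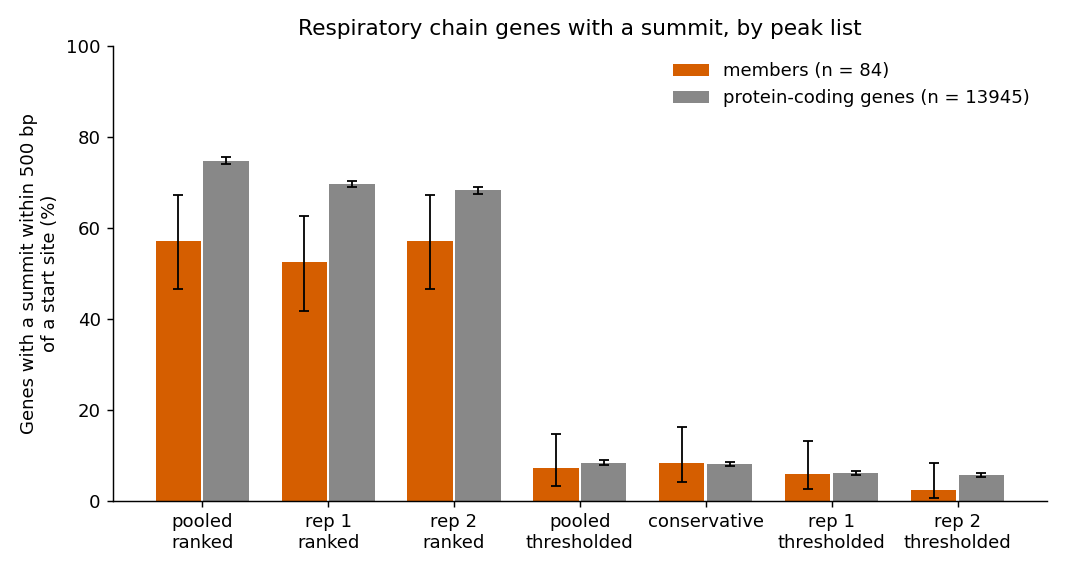
Share of genes with a peak summit within 500 bp of a start site (y axis, percent) in 7 deposited lists (x axis), for the 84 respiratory chain genes (orange) and all 13945 protein-coding genes (grey), with Wilson 95% intervals. The orange bars are lower than the grey in the 3 ranked lists (57.1% against 74.7% in the pooled one) and their intervals contain the grey bars in the 4 thresholded lists.

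Complex I, the NADH dehydrogenase, held 4 of the 6 genes with a thresholded peak. ND-ASHI (FBgn0029888), the counterpart of the human accessory subunit NDUFB8, had the strongest (X, 6679230 to 6679529), with a pooled signal of 182 and its summit 262 bp upstream of the start. The signal, an enrichment value given by the authors without a stated scale, was 61.5 in replicate 1 and 121 in replicate 2, and the peak was thresholded in both. Fum1, the fumarase of the citric acid cycle, starts 260 bp from the same summit on the opposite strand. The summit also lay inside the annotated Fum1 gene and not inside ND-ASHI. The peak cannot be assigned to either of the pair from its position.

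ND-24 (FBgn0030853), the counterpart of the iron-sulfur core subunit NDUFV2, had a peak on X at 17632015 to 17632314, in its own 5′ UTR 76 bp downstream of the start. The gene corolla starts 118 bp from the same summit on the opposite strand, so the position does not assign the peak to ND-24 alone. The pooled signal of ND-24 was 98.8, with 47.4 in replicate 1 and 57.5 in replicate 2. ND-ASHI and ND-24 were the only genes of the 84 thresholded in both replicates. In both, replicate 2 gave the higher percentile among genes, 98.3 against 95.1 at ND-ASHI and 94.5 against 92.6 at ND-24.

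ND-MWFE (FBgn0085468), the counterpart of the accessory subunit NDUFA1, had a peak on 2R at 13158320 to 13158619. Its summit lay 196 bp upstream of ND-MWFE and 25 bp from a start site of the peptidase gene TppII, inside the annotated TppII gene. The pooled signal was 76.8, with 54.2 and a score of 1000 in replicate 1 and 28.4 and a score of 310 in replicate 2. ND-42 (FBgn0019957), the counterpart of NDUFA10, had one on 3R at 22027343 to 22027642, between its start at 216 bp and that of Cchl, the cytochrome c heme lyase, at 13 bp. The pooled signal there was 72, with 42.3 (score 1000) in replicate 1 and 31.1 (score 443) in replicate 2. Both peaks were thresholded in replicate 1 and missed the limit in replicate 2, where the lowest thresholded score was 831. At ND-42 the strongest summits of the replicates lay apart, 101 bp upstream in replicate 1 and 303 bp upstream in replicate 2.

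Complex V, the ATP synthase, held the other 2, which is 13.3% of its 15 genes (interval 3.74 to 37.9), beside 8.36% of all genes. ATPsynE (FBgn0038224), subunit e of the membrane part, had a peak on 3R at 14326856 to 14327155, in its 5′ UTR 59 bp downstream of the nearer of its 2 start sites, with a pooled signal of 69.4. The start of Afti, on the opposite strand, was 317 bp from the summit. The signal was 44.9 (score 1000) in replicate 1 and 27.3 (score 223) in replicate 2, and the replicate summits lay 13 and 10 bp from the pooled one. The replicate summits were nearer to the other start site, 49 and 52 bp upstream of it, so the side depends on the start site taken. ATPsynCF6 (FBgn0016119), coupling factor 6 of the peripheral stalk, had one on 3R at 23356022 to 23356321, 108 bp upstream of its start and 106 bp from that of the coat protein gene Sec13. Its pooled signal was 61.0, with 29.9 (score 567) in replicate 1 and 34.3 (score 626) in replicate 2, so it was thresholded in neither replicate alone. The 6 pooled signals ran from 61.0 to 182 with a median of 74.4, and only that of ND-ASHI exceeded 104, the median over the 1166 genes with a thresholded peak.

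Only ND-24 and ATPsynE were the protein-coding gene nearest to their summit. At the other 4 a neighbour was nearer, although at ND-ASHI (262 against 260 bp) and ATPsynCF6 (108 against 106 bp) only just. All 6 genes had a start site of another protein-coding gene on the opposite strand within 1000 bp upstream. Such divergent pairs were common among the respiratory chain genes, at 43 of 84 (51.2%), beside 36.2% of all genes, and at 40 of the 63 genes that are not like paralogs (63.5%). Of the 43 divergent genes 6 (14.0%) had a thresholded peak, beside 14.4% of all divergent genes, and of the 41 others 0, beside 4.9%. Pooled ranked summits were present at 27 of the 43 divergent genes (62.8%, interval 47.9 to 75.6), beside 72.7% of all divergent genes. They were present at 21 of the 41 others (51.2%, interval 36.5 to 65.7), beside 75.9%. Without the like paralogs, the shares were 26 of 40 (65.0%, interval 49.5 to 77.9) for divergent genes and 7 of 23 (30.4%, interval 15.6 to 50.9) for the others. The difference between the classes was not tested.

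**Figure D2:**
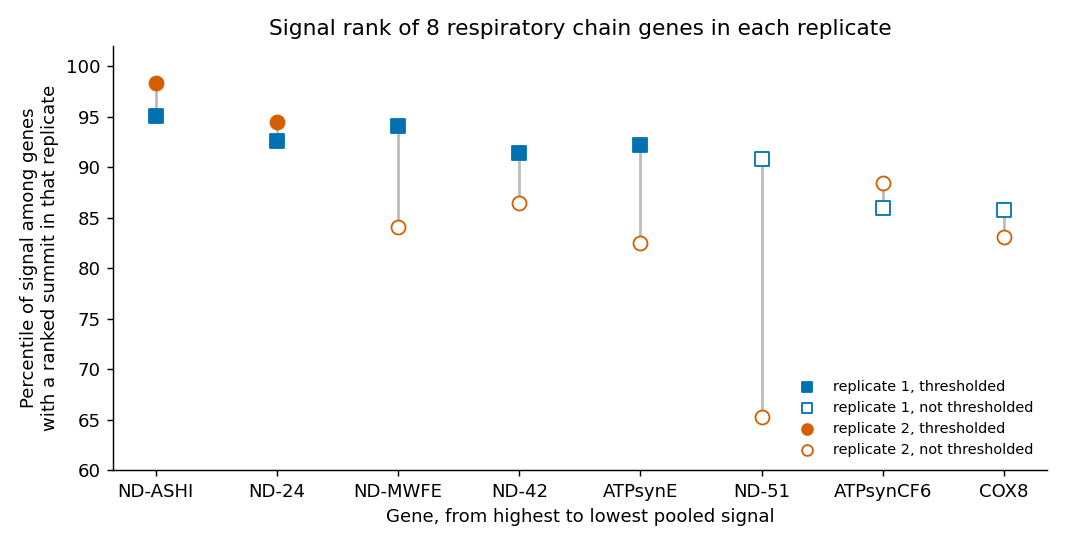
Percentile of the strongest ranked signal near the start (y axis) among all genes with a ranked summit in that replicate, for the 6 genes in the pooled thresholded list with ND-51 and COX8 (x axis), in replicate 1 (squares) and replicate 2 (circles), filled where thresholded. ND-ASHI and ND-24 are filled in both replicates, and ND-51 has the widest gap, from 90.8 to 65.3.

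The near misses are shown beside them, ND-51 just below the pooled limit and COX8 in the conservative list only, with the same capitals and the same genome.
ND-51 (chr2L:6062911-6063011, minus strand): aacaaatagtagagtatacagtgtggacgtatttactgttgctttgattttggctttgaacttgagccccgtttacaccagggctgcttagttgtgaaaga
COX8 (chr3L:21539448-21539548, minus strand): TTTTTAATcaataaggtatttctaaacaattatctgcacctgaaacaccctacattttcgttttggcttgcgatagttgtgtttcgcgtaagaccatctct
ND-51 (FBgn0031771), the counterpart of the flavin-binding core subunit NDUFV1, had a pooled signal of 62.4, above that of ATPsynCF6, but a score of 818, under the lowest thresholded score of 830. Its signal was 39.8 in replicate 1 and 20.1 in replicate 2, and the summit lay 204 bp upstream of ND-51 and 28 bp from the start of CG13994. COX8 (FBgn0263911), a small subunit of cytochrome c oxidase, had a pooled signal of 51.1 with a score of 451 in the pooled ranking and 849 in the conservative one. Its signal was 29.8 in replicate 1, at percentile 85.8, and 27.7 in replicate 2, at percentile 83.1, and the pooled summit lay 51 bp upstream. No run of 8 A or T was present at ND-51, where GC content was 40.6% at the summit and 44.6% beside it, whereas COX8 had 35.6% and 50.5%.

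The rest of complex I had weaker candidates or none. ND-39, the counterpart of NDUFA9, had a pooled signal of 51.1 at 474 bp downstream, with 19.6 in replicate 1 and 29.1 in replicate 2. ND-B17.2, the counterpart of NDUFA12, had 46.1 at 430 bp upstream, with 14.3 and 29.0. For both, replicate 2 gave the higher percentile, 84.8 against 66.3 at ND-39 and 84.7 against 42.2 at ND-B17.2. Complex I as a whole had pooled ranked summits at 22 of 40 genes (55%, interval 39.8 to 69.3), beside 74.7% of all genes, with signals from 3.48 at ND-B22 to 182 at ND-ASHI. ND-SGDH and ND-13A had no pooled candidate, yet replicate 1 alone listed 34.6 (score 736) at ND-SGDH and 28.1 (score 534) at ND-13A. Replicate 2 listed 8.56 at ND-SGDH and nothing at ND-13A, so the values at both genes rest largely on replicate 1.

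Complex II, succinate dehydrogenase, is the one complex in which every gene had a pooled candidate and none a thresholded peak. The pooled signals were 27.7 at SdhD and 25.7 at SdhC, the membrane anchors, 15.9 at the iron-sulfur subunit SdhB and 9.34 at the flavoprotein SdhA. SdhD had 16.6 and 16.4 in the replicates, SdhC had 13.6 in replicate 1 and no candidate in replicate 2, and SdhB had a candidate in neither. SdhA had 4.69 in replicate 1, while the replicate 2 candidate, of 5.06, lay 610 bp from the pooled summit. SdhC, SdhB and SdhA carried the lowest score of the pooled ranking, 31. The values at all 4 genes were near or under the median of 27.4 over genes with a ranked summit.

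Complex III, the cytochrome bc1 complex, had pooled candidates at 3 of 9 genes (33.3%, interval 12.1 to 64.6), beside 74.7% of all genes, and 2 of the 3 are like paralogs. UQCR-6.4L had a pooled signal of 44.2 and 26.3 in replicate 2, while the replicate 1 candidate, of 19.9, lay 749 bp from the pooled summit. UQCR-14L had 14.7 and 9.82 in replicate 1, while the replicate 2 candidate, of 4.04, lay 251 bp away. The core protein UQCR-C2 had 40.6, with 26.3 in replicate 1 and 12.7 in replicate 2. The partner core protein UQCR-C1, with UQCR-11, UQCR-14, UQCR-6.4 and UQCR-Q, had no summit in any ranked list, which makes 5 of the 9 (55.6%, interval 26.7 to 81.1), beside 13.7% of all genes.

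Complex IV, cytochrome c oxidase, had pooled candidates at 9 of 16 genes (56.2%, interval 33.2 to 76.9), beside 74.7% of all genes. None was in the pooled thresholded list (interval 0.0 to 19.4), beside 8.36%. COX6B, a subunit facing the intermembrane space, had a pooled signal of 49.3 at 18 bp downstream, with 25.2 and 24.1 in the replicates. The like paralogs COX6AL and COX4L had pooled signals of 42 and 40.0, with 15.5 and 22.3 in the replicates at COX6AL and 20.6 and 19.7 at COX4L. The percentile of COX6B was 80.4 in replicate 1 and 77.6 in replicate 2, while COX7C, with a pooled signal of 38.2, had 35.4 in replicate 2 and no candidate in replicate 1. COX4, COX5A and COX5B, 3 of the larger nuclear subunits, had no summit in any ranked list.

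In complex V, 10 of 15 genes had a pooled candidate (66.7%, interval 41.7 to 84.8), beside 74.7% of all genes. ATPsyngamma, the central stalk, had a pooled signal of 40.3 with 9.81 in replicate 1 and 24.3 in replicate 2, ATPsynO, in the peripheral stalk, had 35.2 with 21.1, at a summit 128 bp away, and 11.3, and ATPsynF 34.7 with 22.9 and 16.3. The catalytic subunit gene ATPsynbeta, like ATPsynB and ATPsyndelta, had no summit in any ranked list. ATPsynbeta and ND-49 are the 2 genes of the 84 on chromosome 4, where 4 of 80 protein-coding genes (5.0%) had a pooled ranked summit.

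**Figure D3:**
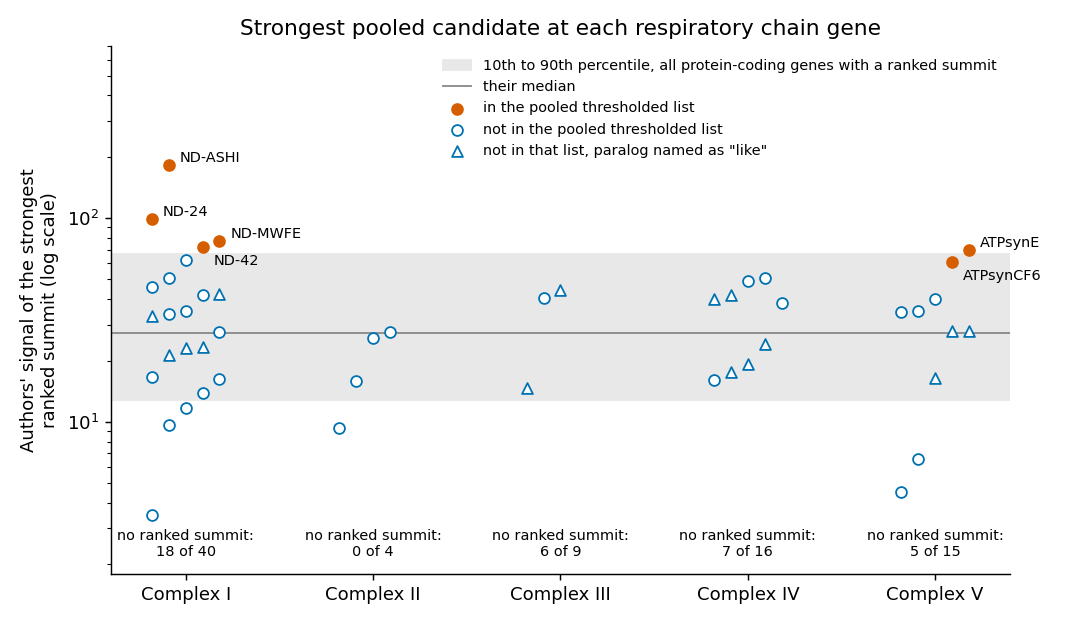
Authors' signal of the strongest pooled candidate no more than 500 bp from a start (y axis, log scale) for each gene, by complex (x axis), with like paralogs as triangles and genes of the pooled thresholded list filled and named. The band spans the 10th to 90th percentile, 12.8 to 66.4, of all genes with a ranked summit. Numbers at the foot count genes with none, 18 of 40 in complex I and 0 of 4 in complex II.

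Over the 48 genes with a pooled candidate, the median signal was 30.6 beside 27.4 over all 10423 such genes, and the median percentile among them was 58.1. Of the 48, 5 were among the strongest 10% of those genes, ND-ASHI, ND-24, ND-MWFE, ND-42 and ATPsynE. A further count was of the lowest score of 31, which 14 of the 48 (29.2%) carried, beside 25%. Replicate values existed for 37 genes in both replicate rankings, and 17 of those had the higher percentile in replicate 2. The strongest summit of a gene was not always the same peak in both. Across these 37 genes, which share the same pair of libraries, the signals had a Spearman rho of 0.584, beside 0.543 across 7686 genes.

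The like paralogs stood as follows beside the other genes. None of the 21 had a thresholded peak in any list (0.0%, interval 0.0 to 15.5). In the pooled list the share was 8.36% of all genes and 4.9% of all genes that were not divergent. Pooled candidates were present at 15 (71.4%, interval 50 to 86.2), beside 74.7% of all genes, and at 33 of the other 63 (52.4%, interval 40.3 to 64.2). The replicate 1 ranking held one at 12 of the 21 (57.1%), beside 69.7%, and the replicate 2 ranking at 19 (90.5%), beside 68.3%, so the replicates differed on these paralogs. Their strongest pooled signal was 44.2 and their median 24.0, against a median of 35.2 over the other 33 genes. Only ND-51L1 (4.76% of the 21) lacked a summit in all ranked lists, against 22 of the 63 others (34.9%), beside 13.7% of all genes. Like paralogs were shorter, at a median of 703 bp against 1178 bp. Of the 21, 3 (14.3%) were divergent, beside 36.2% of all genes. These properties move with the division, and their part in it was not tested.

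The candidates outside the thresholded list mostly lay away from the start itself. Of the 42 genes whose strongest candidate was not thresholded, 26 (61.9%, interval 46.8 to 75) had it more than 50 bp downstream, beside 50.2% of all such genes. In the region from 250 bp upstream to 50 bp downstream there were 6 (14.3%, interval 6.72 to 27.8), beside 29.8%. Of the 6 thresholded genes 3 had the summit in that region (50%, interval 18.8 to 81.2), beside 69.2% of all 1166 thresholded genes. It was upstream at 4 of the 6 (66.7%), beside 86.3%, and the median position was -152 bp, beside -139 bp. ATPsynE was counted as downstream, although its replicate summits lay upstream of its other start site. At the edges of the 500 bp window, SdhB and ND-B22 were just inside at 475 and 484 bp, and COX7AL and ND-B14 just outside at 515 bp (signal 16.5) and 566 bp (signal 19.9). No thresholded summit was near the edge, since the farthest inside was at 262 bp and the nearest outside at 849 bp, at SdhA.

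**Figure D4:**
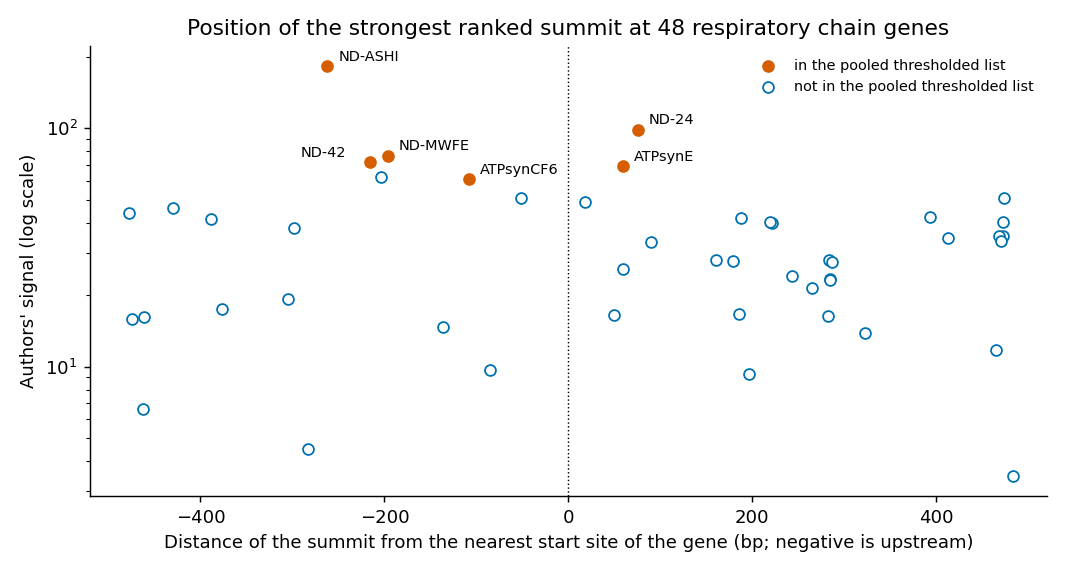
Signed distance of the strongest pooled ranked summit from the nearest start site of the gene (x axis, bp, negative upstream) against the authors' signal (y axis, log scale) for 48 genes. The 6 thresholded genes, filled, lie from 262 bp upstream to 76 bp downstream, and 26 of the other 42 lie more than 50 bp downstream.

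Base composition also differed between the thresholded summits and the other candidates. GC content in the 101 bp around the 6 thresholded summits was 30.4% ± 3.99 (SD, n = 6 genes), ranging from 25.7% to 36.6%, beside 33.9% ± 10.7 (SD, n = 885) at all thresholded summits near genes. Each of the 6 had a run of 8 or more A or T, beside 77.3%. At the 42 candidates that were not thresholded, GC content was 51.4% ± 9.73 (SD), and 26.2% had such a run. With the thresholded summits included, the strongest candidates of the 48 genes had 48.8% ± 11.6 (SD), and 35.4% had a run. The strongest candidates of all genes, thresholded ones likewise included, had 45.9% ± 11.2 (SD, n = 9228), and 38.8% had a run. Thresholded summits were thus poorer in GC over all genes as well, at 33.9% beside 45.9%. The candidates of all genes that were not thresholded were not summarised apart, so the 51.4% has no background beside it. Low GC was not confined to thresholded peaks, since UQCR-14L had 28.7% and UQCR-6.4L and COX6CL 32.7% at candidates with signals of 14.7, 44.2 and 19.3. The part of base composition in the ranking was not tested.

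**Figure D5:**
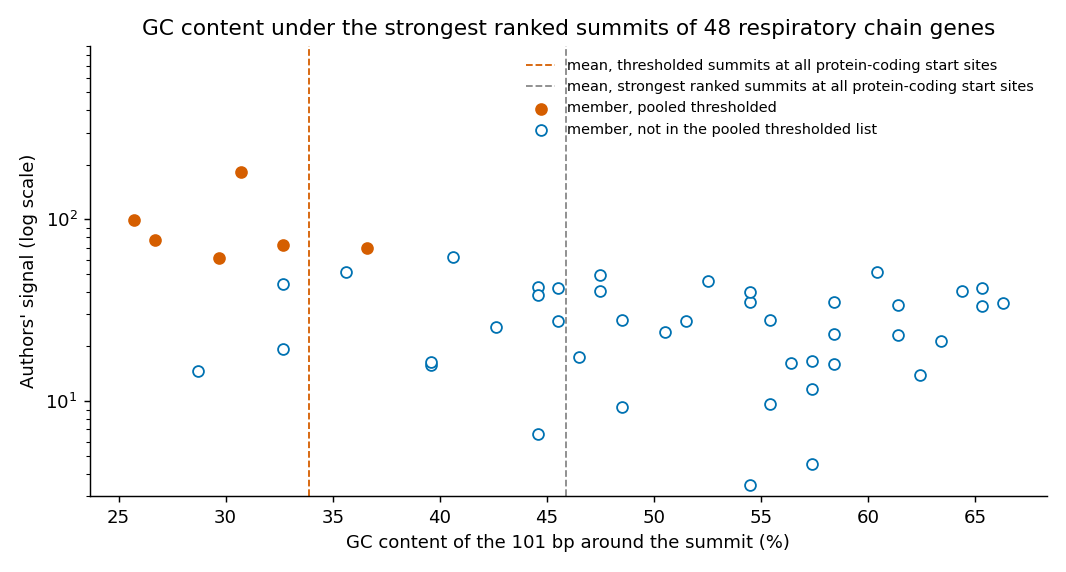
GC content of the 101 bp around the strongest pooled ranked summit (x axis, percent) against the authors' signal (y axis, log scale) for 48 genes, with dashed lines at the means of all thresholded (33.9%) and all strongest ranked (45.9%) summits at genes. The 6 thresholded genes, filled, lie between 25.7% and 36.6%, together with a few unfilled ones.

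The promoters themselves were searched on both strands for exact letters. Motif 1, a core promoter element of housekeeping genes searched as GTCACACT, was present in 16 of the 84 promoters (19.0%), beside 6.45% of all promoters. The DNA replication-related element TATCGATA was present in 8 (9.52%), beside 8.94%, and the GAGA repeat GAGAGAG in 1 (1.19%), beside 6.2%. The nuclear respiratory gene element described in flies, searched as TTACATAA, TTACGTAA, TTATATAA or TTATGTAA, was present in 5 (5.95%), at ND-30, ND-42, ND-49, ND-MNLL and ND-SGDH, beside 5.13%. GCGCATGC, the core of the site bound by human NRF-1, was in none, beside 1.06%. The E-box CAGCTG was present in 22 (26.2%), beside 17.9%, and AAATAT in 60 (71.4%), beside 53.0%.

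Candidates were also counted by the letters of each motif, and Motif 1 is given first. Of its 16 genes, 15 are not like paralogs, and 33 of all 63 such genes (52.4%) had a pooled ranked summit. Of the 16, 4 had a pooled ranked summit (25%, interval 10.2 to 49.5), namely ATPsynD, ND-18, ND-MWFE and ND-PDSW, beside 64.7% of the 900 protein-coding genes with those letters. Of the 68 without, 44 had one (64.7%), beside 75.4%. The 68 include most of the like paralogs. Shares with and without other letters were 37.5% and 59.2% for TATCGATA and 52.5% and 61.4% for TATAAA. They were 40% and 58.2% for the nuclear respiratory gene element and 56.7% and 58.3% for AAATAT. The order was reversed for CAGCTG, at 68.2% and 53.2%, and for CACGTG, at 3 of 4 genes and 56.2%. The 1 gene with GAGAGAG had none. These differences were not tested. Under the 6 thresholded summits, the letters of Motif 1 occurred in none of the 101 bp windows, beside 0.791% of the 885 thresholded summits near genes. CAGCTG occurred in 2 (33.3%), at ND-42 and ATPsynCF6, beside 4.29%. TATAAA occurred in 3 (50%), beside 23.3%, and AAATAT in 3 (50%), beside 35.3%. With only 6 windows these shares are imprecise. In the promoters, TATAAA was present in 40 of the 84 (47.6%), beside 45.3%. A match of letters is a description, and binding at it was not measured.

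Mitochondrial genes outside the 84 gave the surroundings of the pathway. Beside each count stand the 8.36% of all genes with a pooled thresholded peak and the 74.7% with a pooled candidate. Of 14 other subunits and carriers, 3 had a thresholded peak (21.4%, interval 7.57 to 47.6) and 9 a candidate (64.3%, interval 38.8 to 83.7). The 3 were Cyt-c-d, the testis cytochrome c, with a signal of 345 at 392 bp downstream and the start of CG31808 nearer at 158 bp, blw, the alpha subunit of the ATP synthase, with 131 at 171 bp upstream, and levy, a subunit of complex IV, with 78.6 at 78 bp upstream and wmd nearer at 10 bp. Thus blw had a thresholded peak as the nearest gene while its partner ATPsynbeta, on chromosome 4, had no candidate. Of the 80 protein-coding genes on that chromosome, only 4 (5.0%) had a pooled candidate, so the contrast is not particular to the pair. Of 15 assembly factors, 9 had a candidate (60%, interval 35.7 to 80.2) and 2 a thresholded peak (13.3%, interval 3.74 to 37.9). These were CIA30 for complex I, with 726 at 123 bp upstream and the start of CG7601 nearer at 97 bp, and Ttc19. The Ttc19 peak had 57.4 at 167 bp upstream, with the start of Acn nearer at 40 bp. Of 10 citric acid cycle genes, 7 had a candidate (interval 39.7 to 89.2%) and 2 a thresholded peak (interval 5.67 to 51%), Idh3g, a subunit of isocitrate dehydrogenase, with 218 at 99 bp upstream, and Fum1 through the peak it shares with ND-ASHI. Of 10 genes of mitochondrial DNA upkeep and nuclear regulation, 5 had a candidate (interval 23.7 to 76.3%) and 1 a thresholded peak (interval 1.79 to 40.4%), mtSSB, the single-stranded DNA-binding protein, with 140 at 314 bp upstream, while TFAM, ewg and srl had no pooled candidate.

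Farther from the start sites, 26 of the 82 genes off chromosome 4 (31.7%) had a thresholded summit within 5000 bp, beside 22.7% of 13865 genes, and 38 (46.3%) within 10000 bp, beside 35.5%. Within 1000 bp the shares were 9.76% and 10.3%. The median distance to the nearest thresholded summit was 10876.5 bp for these genes and 18036 bp for all. No interval or spread was computed for these shares and medians, and the differences were not tested. The genes themselves were short, at a median of 1097 bp beside 2166 bp.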

How the data were processed

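Each replicate had 1 thresholded and 1 ranked list, and the replicates together gave a pooled and a conservative thresholded list that each had a ranked counterpart, all on dm6 per the labels. The deposited lists give the authors' signal and score for each peak but not read counts, which leaves library depth unknown. The signal has no stated scale, and replicates are compared by percentile. Aligner and peak caller: not given in the sources used here. The pooled ranked list used was the one that holds all peaks of the pooled thresholded list. The labels name the antibody in conflicting ways, and their description, anti-GFP, was followed.

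Start sites came from Ensembl 115, whose chromosome lengths contain every peak, and all 84 genes have the same coordinates in RefSeq. Where several summits lay within 500 bp, the strongest was taken. Percentiles are among genes with a summit in that list. GC content, letters and sequences came from the NCBI Release 6 genome. Of the symbols listed, 14 of 15 other subunits and carriers, 15 of 24 assembly factors, 10 of 11 citric acid cycle genes and 10 of 10 genes of mitochondrial DNA upkeep and regulation matched. The genes named were those with a thresholded summit and the 3 strongest others of each complex; ND-SGDH, ND-13A, COX7C, genes named for a missing candidate and those at the window edges were added with their values known. The 84 genes, the lists and the motifs were chosen with earlier results of these data known. The code was tested on simulated peaks. Python 3.11.15, pandas 2.3.3, numpy 2.4.6 and scipy 1.17.1 were used.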

Additional observations from a re-analysis of the deposited data

How the results depend on the processing

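The count of 6 genes with a thresholded summit (7.14%) stood beside 8.36% of all genes. It was 5 in the list of replicate 1, beside 6.02%, and 2 (2.38%) in that of replicate 2, beside 5.67%. Pooled peaks found in both replicate lists gave 2, beside 4.41%, and pooled peaks at or above the median signal gave 2, beside 5.2%. There were 3 where the peak itself had to cover a start site, beside 3.71%. Where the gene had to be the nearest there were 2 (2.38%), beside 6.2%. Of the genes lost, ND-ASHI and ATPsynCF6 were near ties, at 262 against 260 bp and 108 against 106 bp. The count was 7 in the conservative list, beside 8.0%, 5 at 250 bp, beside 6.38%, and 8 at 1000 bp, beside 10.3%. It was 6 with canonical start sites only, beside 6.93%, an alternative added after seeing the data. The 48 genes with a pooled candidate became 27 at 250 bp and lay between 44 and 61 under the other lists, the 1000 bp window and canonical start sites, each time at a lower share than all genes; without the like paralogs, a choice made after seeing the data, the counts were 6 and 33 of 63. The count of 2 genes in both replicate lists became 1 at 250 bp, beside 3.43% of all genes. For complex I the 4 genes became 2 to 4 with 1 replicate, 2 for peaks in both and 2 for strong peaks. For complex V the 2 genes became 0 to 1, 0 and 0, and for complex IV the 0 became 1 in the conservative list. The causes were not tested. The median percentile of 58.1 lay between 48.4 and 57.1 under the alternatives, so it fell on either side of the middle. The median position of -152 bp became -19 bp with the nearest start site of any protein-coding gene. No paired analysis was possible because there was 1 group. Without read counts, a missing candidate cannot be told apart from low coverage, and mappability was not examined.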
